A study of Rattus norvegicus with 40 samples.

Results

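The core circadian clock of the adrenal gland was followed through 6 genes, chosen by their Ensembl identifiers as the activators, repressors and outputs of the transcriptional loop and measured among 32545 listed genes. They were Arntl, also called Bmal1 (ENSRNOG00000014448), Clock (ENSRNOG00000002175), Per1 (ENSRNOG00000007387), Per2 (ENSRNOG00000020254), Nr1d1 (ENSRNOG00000009329) and Dbp (ENSRNOG00000021027). All 6 passed the filter on low values in every comparison. The samples were adrenal glands of adult Sprague Dawley rats, an outbred stock, exposed to a mixture of organophosphate esters, which are flame retardants and plasticizers found in house dust. Females and males each received the mixture at 30x, 1000x or 30000x or served as controls, which gave 8 groups with 5 RNA-seq libraries each, 40 in all. The labels call the 5 libraries of a group biological replicates without naming the animals, so the p-values measure the spread between these libraries. The labels used here leave out what amount a multiple stands for, the vehicle of the controls, the route and length of exposure, an age beyond adult, and the time of day at which glands were taken.

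In mammals the proteins BMAL1 and CLOCK form a dimer that binds E-box sequences and activates the Per genes, Nr1d1 and Dbp, and the PER proteins return to inhibit that dimer. NR1D1, also called REV-ERB alpha, represses Arntl through response elements in its promoter, so that in a rhythmic tissue Arntl RNA peaks at about the opposite phase to Nr1d1 and Dbp RNA. The adrenal cortex carries such a clock, which takes part in the daily rhythm of glucocorticoid release, and Per1 is also induced quickly by hormones and stress.

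Sequence upstream of the start site is shown for Per2, Nr1d1 and Arntl, the genes whose windows held a known binding sequence of the loop. Dbp, whose RNA ran most clearly against Arntl, is not shown because its window held none. The windows cover the 250 bases before a RefSeq start site on build GRCr8, read 5′ to 3′ on the strand of the gene, and the table matched all 6 genes by symbol (Arntl is listed there as Bmal1). Capitals mark the searched motifs, which were the E-box CACGTG, its variant CACGTT, the D-box TTATGTAA and AGGTCA, the core of the element that binds NR1D1 and ROR receptors, each sought on both strands and chosen after the sequences were seen. No matches overlapped.
Per2, chr9:99496994-99497243, minus strand: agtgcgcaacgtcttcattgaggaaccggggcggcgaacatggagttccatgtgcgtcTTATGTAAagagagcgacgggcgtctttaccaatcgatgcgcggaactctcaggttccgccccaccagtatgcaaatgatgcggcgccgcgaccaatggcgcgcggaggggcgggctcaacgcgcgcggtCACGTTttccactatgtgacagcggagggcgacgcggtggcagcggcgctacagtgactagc
Nr1d1, chr10:84229455-84229704, minus strand: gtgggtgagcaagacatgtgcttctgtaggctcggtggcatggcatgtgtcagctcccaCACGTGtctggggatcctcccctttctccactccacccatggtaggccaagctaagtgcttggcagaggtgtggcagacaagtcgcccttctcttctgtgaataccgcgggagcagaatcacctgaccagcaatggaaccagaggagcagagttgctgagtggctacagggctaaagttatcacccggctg
Arntl, chr1:176766078-176766327, plus strand: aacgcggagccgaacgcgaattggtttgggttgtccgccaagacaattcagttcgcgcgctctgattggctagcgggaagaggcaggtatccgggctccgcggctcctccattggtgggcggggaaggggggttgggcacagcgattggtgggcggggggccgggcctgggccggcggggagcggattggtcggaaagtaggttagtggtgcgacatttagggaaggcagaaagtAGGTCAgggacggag
The Per2 window held the D-box at 192 to 185 bases and the variant E-box at 62 to 57 bases before the start site. The Nr1d1 window, 1 of 2 start sites listed for that gene, held the E-box at 191 to 186 bases before the start, and the window of the other start site held the variant E-box on the opposite strand at 174 to 169 bases. The Arntl window held AGGTCA at 15 to 10 bases before the start. Among 33469 rat windows of this length, 5.59% held the E-box, 4.07% the variant E-box, 0.828% the D-box and 14.1% AGGTCA. The windows of Per1, Dbp and Clock held none of these letters, and a match or its absence describes only these windows.

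Values were FPKM, fragments scaled by gene length and sequencing depth, which can be set side by side between genes because length is divided out. Dbp, a transcription factor that carries clock output to D-box genes, was the most abundant of the 6 with a mean of 118 FPKM over the 40 libraries. Nr1d1 averaged 59.4 FPKM, Per1 24.1 FPKM, Arntl 15.3 FPKM, Per2 13.1 FPKM and Clock 9.0 FPKM. Dbp was above Nr1d1 in 39 of 40 libraries, and Nr1d1 was above Per1 in 37. The neighbours lower in the order crossed more often, since Per1 was above Arntl in 30 libraries, Arntl above Per2 in 24 and Per2 above Clock in 31, so the places of Arntl and Per2 did not differ beyond the spread between libraries. The tables also held enough information to recover the whole reads behind each value, between 13527205 and 23838651 per library. The fewest reads behind any value of the 6 genes were 206, for Arntl in male 30x replicate 1, a counting error of 6.97%, which is small beside the spread described next.

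**Figure D1:**
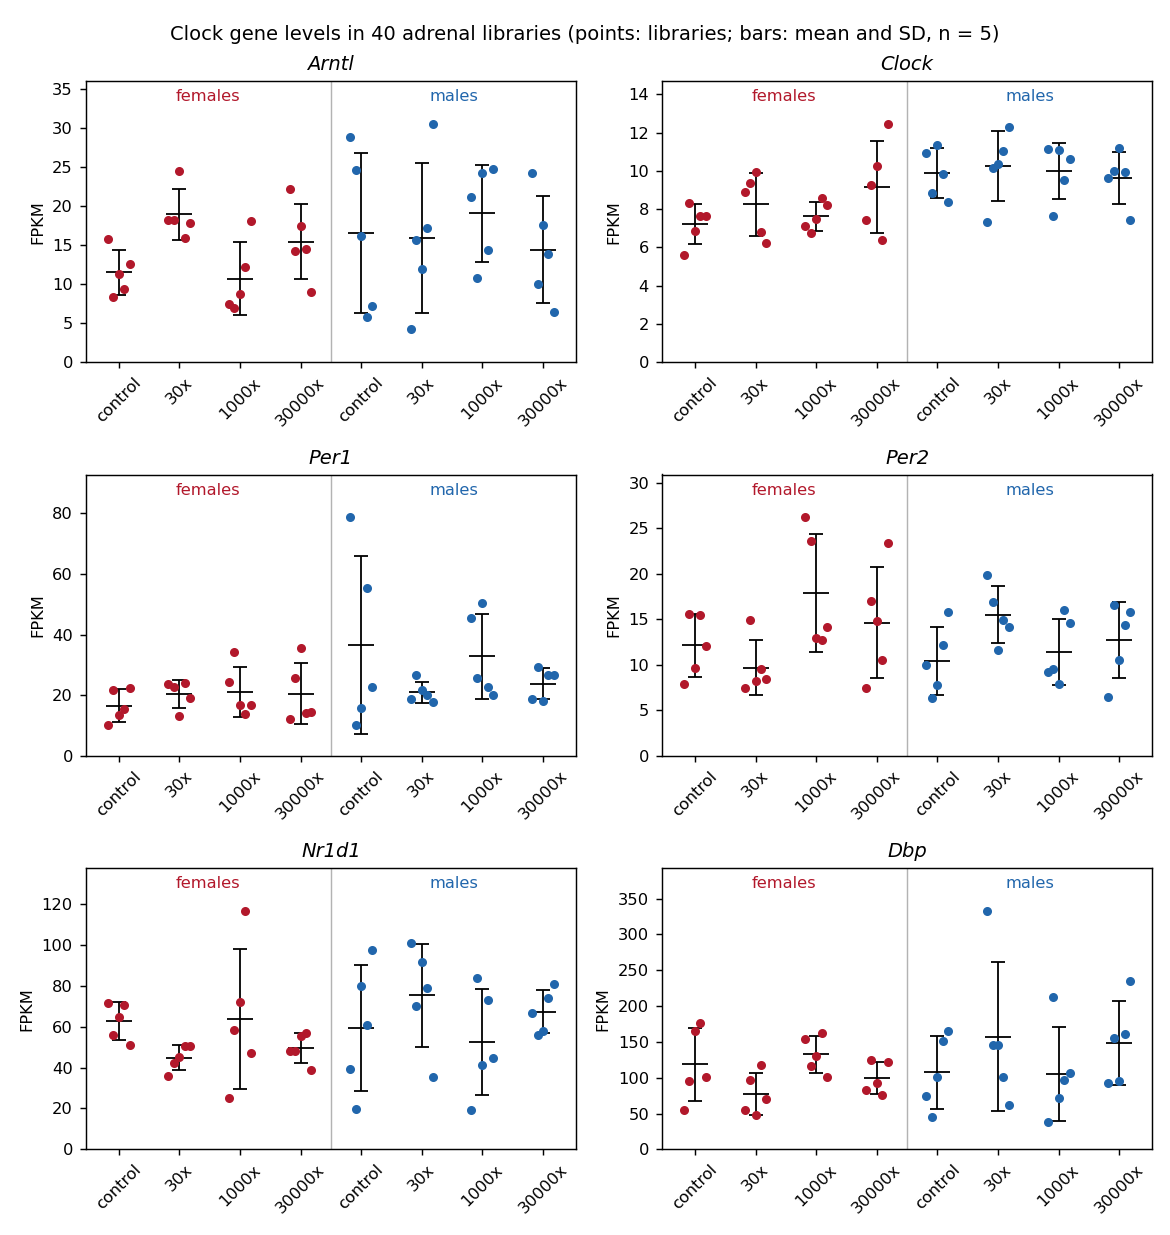
Each point is the FPKM of 1 library, with females left of males and the 4 dose groups of a sex from control to 30000x along the horizontal axis; horizontal bars are the mean and whiskers the SD of 5 libraries. Arntl runs from 4.33 to 30.5 FPKM and Dbp from 38.5 to 333 FPKM, and in both genes the widest groups are male groups, while Clock stays between 5.63 and 12.5 FPKM.

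In 5 of the 6 genes, libraries of the same group differed widely in some or all groups. The highest of the 40 libraries exceeded the lowest by 8.66-fold for Dbp, 7.80-fold for Per1, 7.05-fold for Arntl, 6.01-fold for Nr1d1 and 4.12-fold for Per2, against 2.21-fold for Clock. Within groups, the SD of log2(FPKM + 1) was 0.65 for Dbp, 0.63 for Arntl, 0.60 for Per1, 0.57 for Nr1d1, 0.45 for Per2 and 0.23 for Clock. The median was 0.59 over the 6 genes and 0.27 over all 13926 genes tested. Dbp had a larger SD than 92.0% of the tested genes, Arntl than 91.4%, Per1 than 90.4%, Nr1d1 than 89.4% and Per2 than 81.5%, counting equal values, whereas Clock stood at 35.4%. The percentages came to 95.2% for Dbp, 94.8% for Arntl and 48.2% for Clock among the 8751 genes that averaged 5 FPKM or more. The spread of Arntl was 0.40 in females and 0.79 in males, that of Dbp 0.48 in females and 0.78 in males, and that of Nr1d1 0.44 in females and 0.68 in males, on the log2 scale. Per2 and Clock did not follow this order of the sexes, with 0.46 in females and 0.43 in males for Per2 and 0.24 in females and 0.21 in males for Clock. These differences in spread between the sexes were not tested. Nr1d1 was uneven between groups, with 1.41-fold between the lowest and highest library in female controls and at female 30x. The range of Nr1d1 was 1.48-fold at female 30000x and 1.44-fold at male 30000x. It was 4.61-fold at female 1000x, 4.31-fold at male 1000x and 4.94-fold in male controls.

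Arntl, the gene of the BMAL1 activator, had the largest spread of the 6 genes in males (0.79 on the log2 scale) but not in females (0.40). In females it was at 15.8, 8.34, 11.3, 9.44 and 12.6 FPKM in controls, at 18.3, 18.2, 24.5, 15.9 and 17.8 FPKM at 30x, at 7.48, 7.0, 8.69, 12.2 and 18.1 FPKM at 1000x, and at 22.1, 14.2, 17.5, 14.5 and 8.94 FPKM at 30000x. In males it was at 28.8, 24.7, 16.1, 5.79 and 7.23 FPKM in controls, at 4.33, 15.6, 12, 17.1 and 30.5 FPKM at 30x, at 21.1, 10.7, 24.3, 14.4 and 24.7 FPKM at 1000x, and at 24.2, 10.04, 17.6, 13.8 and 6.43 FPKM at 30000x. The male controls held 2 libraries near the top of the whole range, 2 near the bottom and 1 near the middle, and the male 30x group held both the lowest and the highest value of all 40 libraries. Each male dose group overlapped the male controls, whereas all 5 female 30x libraries lay above all 5 female controls.

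Over the 40 libraries Dbp tended to be high where Arntl was low. In females Dbp was at 55.4, 96.0, 165, 176 and 101 FPKM in controls, at 54.8, 96.5, 47.4, 117 and 69.9 FPKM at 30x, at 154, 116, 131, 163 and 101 FPKM at 1000x, and at 82.8, 125, 93.0, 75.5 and 121 FPKM at 30000x. In males it was at 74.2, 45.4, 101, 152 and 165 FPKM in controls, at 333, 146, 146, 101 and 61.8 FPKM at 30x, at 38.5, 212, 71.3, 96.7 and 106 FPKM at 1000x, and at 93.2, 156, 95.1, 161 and 235 FPKM at 30000x. The library with the highest Dbp, male 30x replicate 1, had the lowest Arntl, and every dose group overlapped the controls of its sex. In females the extremes did not meet in 1 library. The highest female Dbp, in control replicate 4, came with 9.44 FPKM of Arntl. The lowest female Arntl, in 1000x replicate 2, came with 116 FPKM of Dbp. The ratio of Dbp to Arntl within a library ran from 1.82 in male 1000x replicate 1 to 76.9 in male 30x replicate 1, with a median of 7.03. It spanned 3.498 to 18.7 in the 5 female controls and 1.84 to 26.2 in the 5 male controls, groups that had received none of the mixture.

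Nr1d1, which encodes the repressor of Arntl, varied most at 1000x in both sexes and among the male controls. In females it was at 71.7, 55.9, 64.8, 70.4 and 50.9 FPKM in controls, at 35.8, 42.2, 45.01, 50.4 and 50.7 FPKM at 30x, at 25.3, 58.2, 72.0, 117 and 46.9 FPKM at 1000x, and at 48.1, 48.2, 55.7, 57.1 and 38.7 FPKM at 30000x. In males it was at 39.4, 19.7, 79.9, 60.6 and 97.3 FPKM in controls, at 101, 69.9, 91.6, 78.7 and 35.6 FPKM at 30x, at 19.4, 83.7, 41.3, 73.2 and 44.5 FPKM at 1000x, and at 66.8, 56.1, 58.0, 74.0 and 81.1 FPKM at 30000x. All 5 female 30x libraries were below all 5 female controls, the closest values being 50.7 FPKM at 30x and 50.9 FPKM in controls, and the other dose groups overlapped their controls. The ratio of Nr1d1 to Arntl ran from 0.798 in male control replicate 2 to 23.3 in male 30x replicate 1.

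In the negative limb of the loop, the SD within groups was 0.60 for Per1 and 0.45 for Per2 on the log2 scale. Per1, whose protein represses BMAL1 and CLOCK, ran from 10.1 FPKM in female control replicate 1 to 78.6 FPKM in male control replicate 1, and the next highest libraries were male control replicate 4 with 55.2 FPKM and male 1000x replicate 3 with 50.3 FPKM. Outside the male control and male 1000x groups no library exceeded 35.7 FPKM. Per2, the close relative of Per1, ran from 6.36 FPKM in male control replicate 2 to 26.2 FPKM in female 1000x replicate 1. Its group means were 12.1 ± 3.45, 9.71 ± 3.04, 17.9 ± 6.48 and 14.6 ± 6.12 FPKM in females from control to 30000x, and 10.4 ± 3.73, 15.5 ± 3.12, 11.4 ± 3.62 and 12.7 ± 4.22 FPKM in males (SD, n = 5 each).

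Libraries with high Arntl tended to have low Dbp. After the mean of each sex and dose group was subtracted, so that no difference between groups could enter, Pearson's r of Dbp and Arntl was -0.77 over the 40 libraries and Spearman's rho was -0.74. The permutation p of r was 1e-05, the smallest that 100000 permutations within groups can give, and 0.00015 after Benjamini-Hochberg adjustment over the 15 pairs of the 6 genes. The r was -0.76 without the 2 libraries farthest from the median of Dbp. Within females r was -0.49 and rho -0.49 (permutation p of r adjusted over 15 pairs 0.11), and within males r was -0.85 and rho -0.81 (adjusted permutation p 0.00045). Over the 10 control libraries r was -0.76, with an adjusted permutation p of 0.17.

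Nr1d1 ran opposite to Arntl in males and not in females. Over all 40 libraries r was -0.42 and rho was -0.42, with a permutation p of 0.034 and 0.078 after adjustment over the 15 pairs, and r was -0.38 without the 2 farthest libraries. Within males r was -0.64 and rho -0.70 (adjusted permutation p 0.018 for r), and within females r was 0.25 and rho 0.20 (adjusted permutation p 0.62 for r). The female r rested on 2 libraries, since it was -0.01 without the 2 farthest from the median of Nr1d1. Nr1d1 in the female 1000x group had both of the female extremes, 25.3 FPKM in replicate 1 and 117 FPKM in replicate 4, which differed by 4.61-fold. The pooled r passed the threshold without the first of these (r = -0.52, adjusted permutation p 0.033) and without the second (r = -0.49, adjusted permutation p 0.045). It did not pass without any other single library, and r was smallest without male 30x replicate 5 (-0.35, adjusted permutation p 0.18). Scaled to total reads it was -0.35 (adjusted permutation p 0.16).

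**Figure D2:**
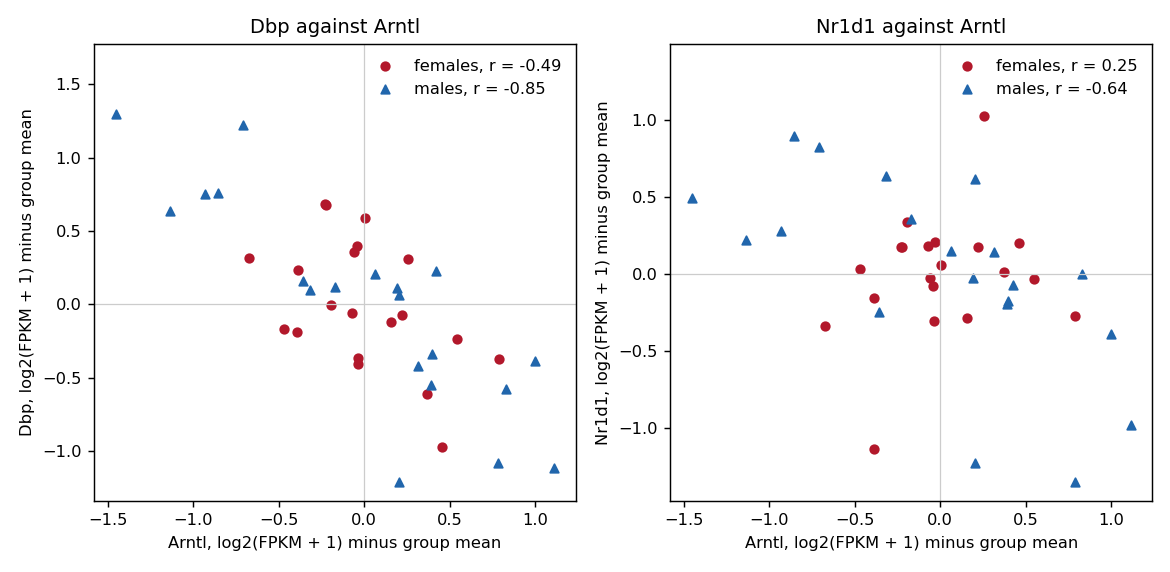
Each point is 1 library; the horizontal axis is Arntl and the vertical axis Dbp on the left or Nr1d1 on the right, all as log2(FPKM + 1) minus the mean of the library's own group, with females as circles and males as triangles. The male points run from upper left to lower right in both panels (r = -0.85 for Dbp and -0.64 for Nr1d1), and the female points do so for Dbp (r = -0.49) but not for Nr1d1 (r = 0.25).

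Of the 15 pairs of clock genes, 4 passed an adjusted permutation p of 0.05 for r over all 40 libraries, 1 within females and 7 within males. By rho the counts were 5, 0 and 8, because Nr1d1 with Clock also passed over all libraries (rho = -0.43, adjusted permutation p 0.024) and within males (rho = -0.57, adjusted permutation p 0.042), and the female pair did not pass. Besides Dbp with Arntl, the pairs over all libraries were Per2 with Arntl (r = -0.60, rho = -0.62, adjusted permutation p of r 0.0015), Dbp with Nr1d1 (r = 0.61, rho = 0.51, adjusted permutation p of r 0.0016) and Per2 with Dbp (r = 0.52, rho = 0.53, adjusted permutation p of r 0.0019). Without the 2 farthest libraries these were -0.55, 0.54 and 0.51. Per2 with Arntl was the 1 pair that passed within females by r (r = -0.72, adjusted permutation p 0.041), and it missed the threshold by rho (rho = -0.71, adjusted permutation p 0.055). Within males it passed by both (r = -0.60 and rho = -0.55, with adjusted permutation p of 0.022 and 0.042). The female r of Per2 with Arntl was -0.59 without the 2 farthest libraries. Within males the remaining pairs were Dbp with Nr1d1 (r = 0.83), Arntl with Clock (r = 0.73), Dbp with Clock (r = -0.73) and Per2 with Dbp (r = 0.58). Their values of rho were 0.72, 0.67, -0.69 and 0.61, the adjusted permutation p of r 0.00067, 0.0065, 0.0065 and 0.022, and r without the 2 farthest libraries was 0.75, 0.71, -0.68 and 0.53. Per1 passed with no other gene. Its r with Arntl was -0.17 over all libraries, -0.40 in females and -0.09 in males. Pairs of other genes were not tested, within or between the sexes. The counts of pairs here and below therefore stand without a share over all genes.

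**Figure D3:**
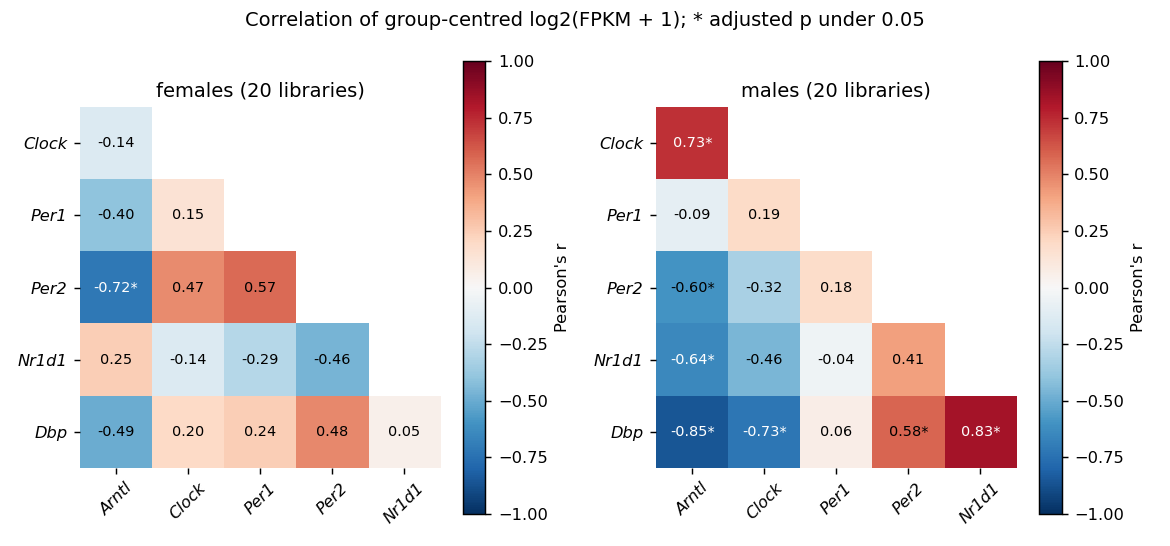
The squares give Pearson's r of each pair of clock genes over 20 libraries of 1 sex, females left and males right, on log2(FPKM + 1) with group means removed; an asterisk marks an adjusted permutation p under 0.05. In males 7 of 15 pairs carry an asterisk and Dbp with Nr1d1 reaches 0.83, while in females 1 pair does and Dbp with Nr1d1 is 0.05.

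The difference in r between the sexes was tested for the 15 pairs by permuting sex, a test chosen after the values within sexes were seen. The group-centred values of each gene were first scaled to equal spread in the 2 sexes. Libraries were then permuted between the sexes without regard to dose group. Group means were removed once, before the permutation, and not again after it, so the p-values of this test can be too small. For 7 pairs the adjusted permutation p was under 0.05. Nr1d1 with Arntl differed by 0.89 (0.25 in females and -0.64 in males, adjusted permutation p 0.031) and Dbp with Nr1d1 by -0.78 (0.05 in females and 0.83 in males, adjusted permutation p 0.031). Dbp with Arntl differed by 0.36 (adjusted permutation p 0.042). The count was sensitive to single libraries, each left out in turn with 10000 permutations. Nr1d1 with Arntl then differed by 0.72 to 1.06, with an adjusted permutation p of 0.0075 to 0.073. The highest adjusted permutation p among the 7 pairs was 0.089, for Arntl with Clock. The count was 0 without replicate 1 of the female controls, replicate 1 at female 1000x or replicate 5 at female 30000x. It was also 0 without replicate 5 at male 30x, replicate 4 at male 1000x or replicate 5 at male 30000x. Leaving out replicate 2 at female 30x, replicate 4 at female 30000x, replicate 5 of the male controls, or replicate 1 at male 30x gave 2 pairs, as did leaving out replicate 3 at male 1000x or at male 30000x. Without female 30000x replicate 1 or male 1000x replicate 1 it was 3, without male 1000x replicate 2 it was 4, while 6 pairs passed without any of another 6 libraries and 7 without any of the other 19. It was 2 when libraries were scaled to their total reads. Arntl, Dbp and Nr1d1 also had the larger spread in males given above. The test set the spread of the sexes equal, and the part of the larger male spread in the difference in r was not tested.

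**Figure D4:**
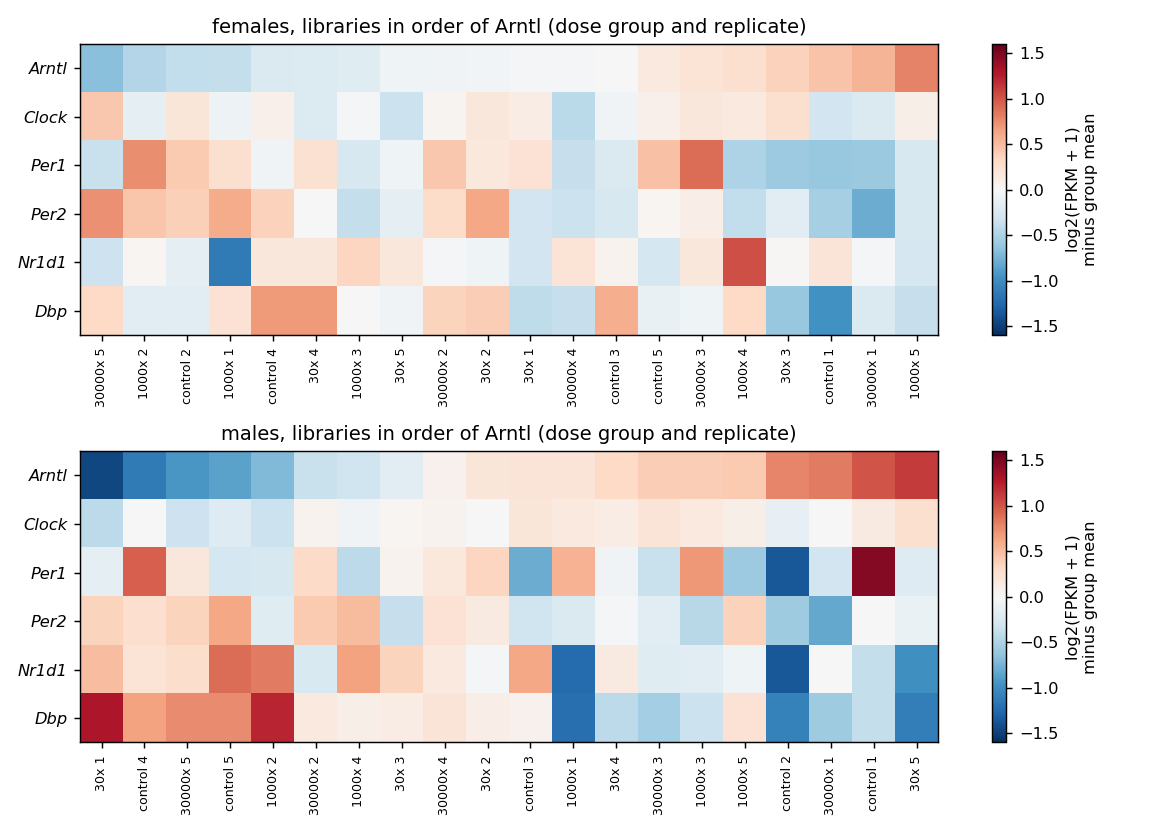
Columns are the 20 female libraries (upper panel) and the 20 male libraries (lower panel) in order of Arntl from low to high, named by dose and replicate; rows are the 6 genes and colour is log2(FPKM + 1) minus the group mean. In males Dbp and Nr1d1 are mostly red at the left and blue at the right. Every dose group has libraries on both sides because its own mean was subtracted, so the order carries no information about dose.

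A number in each library's name, whose meaning the labels do not give, was related to the 6 genes within each sex. None of the 12 correlations passed. The closest was Per2 in males, with r = 0.48 and rho = 0.44 over 20 libraries (permutation p 0.060, 0.73 after adjustment over 12) and r = 0.32 without the 2 farthest libraries. In females, r grew without the 2 farthest libraries for Arntl (0.50, against 0.30 with all 20), Clock (-0.45, against -0.27) and Per2 (-0.43, against -0.23). A relation of the clock genes to the time of day of sampling was not tested, because no time is given.

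The genes whose RNA was most like Arntl were sought among the 8751 genes averaging 5 FPKM or more, over all 40 libraries after group means were removed. ENSRNOG00000047171 had the highest r, 0.92 (0.89 in females and 0.94 in males), with levels between 14.8 and 40.8 FPKM. ENSRNOG00000027747 followed with 0.79 (0.76 in females and 0.83 in males). At the other end ENSRNOG00000018413 had -0.77 (-0.76 in females and -0.80 in males, 1.79 to 15.5 FPKM) and ENSRNOG00000019383 had -0.76 (-0.55 in females and -0.82 in males, 8.82 to 43.5 FPKM). The files and reference tables used here pair no symbols with these identifiers. Only 1 of the other genes had a lower r with Arntl than Dbp had and 7 had a lower one than Per2, while 156 had a lower r than Nr1d1 and 346 had a higher r than Clock. Genes with r beyond 0.6 in either direction numbered 24. These genes share libraries and depth, so the values describe the 40 libraries, with no test.

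The question set by the design was whether the mixture changed these genes at any dose. None of the 36 tests of a clock gene in a dose group against the controls of its sex passed an adjusted p of 0.05 with limma on log2(FPKM + 1), and the lowest adjusted p was 0.51. Among all genes tested, 0.0% were called at each dose in females (of 13251) and 0.00763% at each dose in males (of 13110). The 3 dose comparisons of a sex share their 5 control libraries. An unadjusted p under 0.05 arose in 2 of the 36 tests, for Arntl at 30x in females, where 7.95% of all genes had one, and for Per2 at 30x in males, where 9.52% had one. None arose at 1000x or 30000x, where the share over all genes was 1.67% and 9.88% in females and 7.22% and 5.88% in males.

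In females at 30x, Arntl averaged 18.9 ± 3.27 FPKM, against 11.5 ± 2.93 FPKM in controls (SD, n = 5 each), a log2 difference of 0.69 (SE 0.24, limma p 0.0089, adjusted over all genes 0.61). Nr1d1 averaged 44.8 ± 6.19 FPKM at 30x, against 62.7 ± 9.09 FPKM in controls, a log2 difference of -0.47 (SE 0.26, limma adjusted p 0.64). Dbp averaged 77.2 ± 29.2 FPKM at 30x, against 119 ± 50.7 FPKM in controls, with a log2 difference of -0.58 (SE 0.28, limma adjusted p 0.62). Arntl and Nr1d1 were the 2 genes of 6 whose dosed and control libraries did not overlap, where 0.777% of all genes tested did not. In the other 5 comparisons 0 of 6 clock genes were free of overlap. There the share over all genes was 0.325% at 1000x and 1.07% at 30000x in females, and 1.48%, 1.44% and 0.656% from 30x to 30000x in males. At 1000x the female Arntl mean was 10.7 ± 4.63 FPKM and at 30000x 15.4 ± 4.83 FPKM, so the means did not follow the order of the doses. By p-value Arntl ranked 160 of 13251 genes at 30x in females.

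In males at 30x, Per2 averaged 15.5 ± 3.12 FPKM, against 10.4 ± 3.73 FPKM in controls, a log2 difference of 0.57 (SE 0.25, limma p 0.035, adjusted 0.51). Arntl in males differed from controls by -0.03, 0.37 and -0.07 on the log2 scale from 30x to 30000x, each with an SE of 0.46. The 95% intervals of the difference lay within 1 log2 unit of 0 for 14 of 18 tests in females and 8 of 18 in males. For Dbp in males they reached 1.42, 0.85 and 1.47 upward and -0.48, -1.05 and -0.43 downward from 30x to 30000x. The intervals at 30x and 30000x thus include a doubling, and the interval at 1000x includes a halving. The steady gene Clock gave the narrowest intervals, from -0.24 to 0.31 at 30x in males and from -0.16 to 0.49 at 30x in females. Over the ranks of the doses 0 of 6 genes had a trend in either sex (limma adjusted p at least 0.75 in females and 0.91 in males), and 0 had an unadjusted p under 0.05, against 6.34% of all genes in females and 4.37% in males. After adjustment the trend was called for 0.0% of all genes in females and 0.00763% in males.

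**Figure D5:**
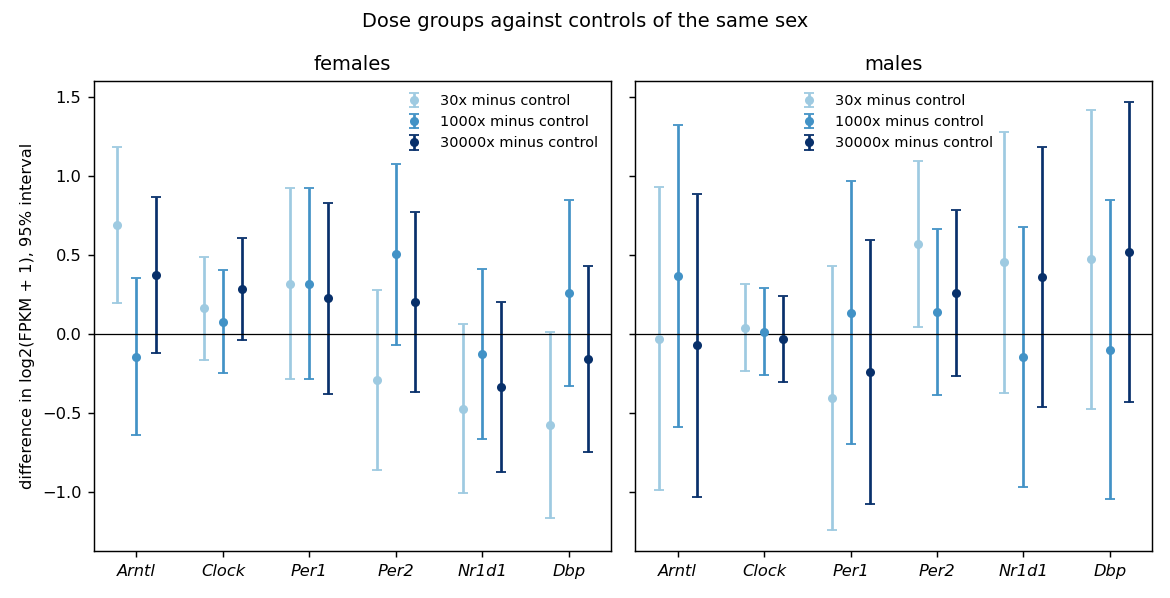
Points are the log2(FPKM + 1) difference of each dose group from the controls of its sex (30x, 1000x and 30000x from light to dark), with 95% intervals from limma; females left, males right. Clock has the narrowest intervals in both sexes, the male intervals of Arntl and Dbp span nearly 2 log2 units, and no difference passed after adjustment.

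Females and males differed in Clock, which encodes the partner of BMAL1. Female Clock was at 5.63, 8.35, 6.86, 7.66 and 7.64 FPKM in controls, at 8.91, 9.39, 9.95, 6.83 and 6.21 FPKM at 30x, at 7.14, 6.77, 7.46, 8.61 and 8.21 FPKM at 1000x, and at 7.43, 9.27, 10.3, 6.39 and 12.5 FPKM at 30000x. Male Clock was at 10.96, 8.85, 11.4, 9.82 and 8.35 FPKM in controls, at 7.32, 10.2, 10.4, 11.02 and 12.3 FPKM at 30x, at 11.1, 7.62, 11.1, 9.52 and 10.6 FPKM at 1000x, and at 9.65, 10.02, 11.2, 9.94 and 7.42 FPKM at 30000x. The sexes overlapped at 30x, 1000x and 30000x, and in the controls the highest female and the lowest male value were both 8.35 FPKM. Over all dose groups Clock averaged 8.07 ± 1.63 FPKM in females, against 9.94 ± 1.40 FPKM in males (SD, n = 20 each). The log2 difference was -0.28 (SE 0.07, limma adjusted p 0.0034), where 29.5% of all 13926 genes tested were called. It was the 1 of 6 clock genes called, and with Per1 1 of 2 that had an unadjusted p under 0.05, against 39.7% of all genes. In the controls alone Clock differed by -0.40 (SE 0.14, limma adjusted p 0.096), and 0 of 6 genes were called there, against 5.23% of all genes. Clock and Per1 had an unadjusted p under 0.05 in the controls, as did 19.8% of all genes.

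The sex difference in Clock kept its sign and its call under every other setting and with each library left out, with an adjusted p of at most 0.0065. Scaling to total reads gave -0.43 and moved the median difference of all genes to -0.13. The 10 most abundant genes took 21.7 to 38.2% of reads in female libraries and 15.7 to 22.98% in male libraries, and the part of this difference in the result was not tested. In bulk tissue, fewer cells that carry a transcript and less of it per cell cannot be told apart. One female library, 30000x replicate 5, stood apart with a median correlation of 0.908 with its group, where the other 39 had at least 0.947, and it held the highest Clock value. Without it the difference in Clock was -0.31 (limma adjusted p 0.000867), and no call of the 6 genes changed in the comparisons that use it.

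Per1 averaged 19.7 ± 7.03 FPKM in females, against 28.5 ± 16.5 FPKM in males (SD, n = 20 each), a log2 difference of -0.43 (SE 0.18, limma adjusted p 0.071). It passed when libraries were scaled to total reads (-0.59, adjusted p 0.011) or given library weights (-0.50, adjusted p 0.024) in limma. Leaving out male control replicate 2 (-0.51, limma adjusted p 0.017), male control replicate 3 (-0.48, 0.044), female 1000x replicate 2 (-0.47, 0.047) or female 30000x replicate 3 (-0.48, 0.039) had the same effect. Arntl, Nr1d1, Dbp and Per2 differed between the sexes by -0.12, -0.14, -0.17 and 0.08 on the log2 scale, with limma adjusted p between 0.54 and 0.70.

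No change with dose differed between the sexes for any of the 6 genes after adjustment, and 0.0% of all 13926 genes were called in any of the 3 tests of that difference. The 1 unadjusted p under 0.05 was that of Per2 at 30x, where the change in females minus that in males was -0.86 (SE 0.38, limma p 0.031, adjusted 0.35). At that dose 13.1% of all genes had an unadjusted p under 0.05, against 4.67% at 1000x and 12.8% at 30000x, where none of the 6 had one. For Dbp the same quantity was -1.05 (SE 0.55) and for Nr1d1 -0.93 (SE 0.49), with limma adjusted p of 0.41 for both.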

How the data were processed

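RNA from adrenal glands in 40 libraries (8 groups of 5, by title) was sequenced as paired ends. The submitters' processing notes name HISAT2 2.0.5 as aligner and featureCounts 1.5.0-p3 as counter. The genome build, annotation and strand setting were not given in the sources used here. Each library came as 1 table that the authors deposited, with FPKM values for 32545 genes, of which 9505 were at 0 throughout. For 20717 genes whole reads could be recovered (100.0% of 680244 values within 0.05 of a whole read), which showed that the deposited FPKM are scaled by median-of-ratios size factors between 0.582 and 1.545. Library totals ran from 13527205 to 23838651 recovered reads, median 17528215, and counting error covers reads only.

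The 6 genes and the rules were chosen with earlier results of these data known, and the names come from the list that chose the genes. The other clock, glucocorticoid, immediate early and cell type lists (cortex, medulla, fat, macrophage, endothelium, blood) were not analysed here, because no table used pairs symbols with the identifiers, so the tissue label was not checked against markers. Named genes were the 6 and the 2 highest and 2 lowest in correlation with Arntl.

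limma 3.58.1 (trend) in R 4.3.3 was fitted on log2(FPKM + 1), within each sex for dose and over all 40 libraries for sex, to genes with at least 1 FPKM in 5 libraries, two-sided, with Benjamini-Hochberg adjustment over all genes tested. Fold changes on this scale understate those of low genes. Correlations used two-sided permutations within groups, except that the test of r between the sexes permuted libraries over both sexes and all groups (Python 3.11.15, scipy 1.17.1). Some of the limma comparisons and the permutation of r within groups were tested on simulated data. The test of r between the sexes was not tested in this way. Alternatives were a pseudocount of 0.1, no filter, a minimum mean of 5 FPKM, scaling to totals, quantile normalization, library weights, a replicate block, only the groups compared, limma's voom on the recovered reads with median-of-ratios library sizes, and each library left out. The test of r between the sexes and its alternatives were chosen after seeing the data. The voom fit on the recovered counts called 4088 genes between the sexes over all doses, against 4103 on FPKM. No pair of libraries of 1 group agreed within sampling noise.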

Additional observations from a re-analysis of the deposited data

Results flagged for a closer look

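A library stood far from the other 4 of its group in 2 of the 48 sets of 5 values (6 genes in 8 groups), and chance marks about 1 in 20, or 2.4 of 48. Both were in the female 30x group. Arntl was at 24.52 FPKM in replicate 3, where the others were at 15.9 to 18.3 FPKM, and this library lies on the side away from the controls. Per2 was at 14.98 FPKM in replicate 2, where the others were at 7.44 to 9.498 FPKM.

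The correlation of 7 pairs of clock genes differed between females and males by a permutation of sex, with adjusted p between 0.031 and 0.043 over 15 pairs. In females minus males, r differed by 0.891 for Nr1d1 with Arntl (0.25 in females, -0.64 in males), -0.7831 for Dbp with Nr1d1 (0.05 in females, 0.83 in males) and 0.3608 for Dbp with Arntl (-0.49 in females, -0.85 in males). It differed by 0.9291 for Dbp with Clock (0.20 in females, -0.73 in males) and by -0.8695 for Arntl with Clock (-0.14 in females, 0.73 in males). For Per2 it differed by -0.8741 with Nr1d1 (-0.46 in females, 0.41 in males) and by 0.7941 with Clock (0.47 in females, -0.32 in males). Leaving out any 1 of 6 libraries, named in the account above, left 0 of these pairs past the threshold. The p-values of this permutation can be too small, because group means were not removed again after it.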

How the results depend on the processing

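Among the dose and sex values of single genes, 678 kept their direction and call under other settings, 2 gained a call and 4 changed sign, none of them called. With a library left out 1255 kept both, 4 gained a call and 1 changed sign. Scaling to totals turned Clock at 30x in females (-0.053), Per2 between the sexes (-0.074) and the sex difference of Clock at 30x (-0.13); library weights turned Per2 at 30000x in females (-0.13); Nr1d1 at 1000x in females ran from -0.39 to 0.15 with a library left out (0.15 without 1000x replicate 1). The clock genes called between the sexes over all doses numbered 2 with scaling to totals and with library weights, and 1 to 2 with a library left out. The r of Nr1d1 with Arntl was -0.47 with group means kept (adjusted permutation p 0.0077), 0.25 in females alone, -0.64 in males alone and -0.52 to -0.35 with a library left out. That of Dbp with Arntl was -0.49 in females alone, -0.76 in the controls alone and -0.80 to -0.72 with a library left out, where its adjusted permutation p was at most 0.00015. Pairs that differ between the sexes numbered 2 with scaling to totals and 0 to 7 with a library left out. The cause of these changes was not tested. Counting error was at most 6.97% for these genes, below the spread between libraries. Calls between the control groups of the 2 sexes over all genes numbered 728, 1508 with library weights and 435 with only the groups compared.

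Replicate numbers did not pair libraries throughout: in 0 of 12 pairs of groups were all same-numbered libraries correlated above 0.1 (mean r 0.012, against -0.0028 for other numbers). The mean r of a pair of groups was highest for female controls with female 30x (0.124, against -0.031 for other numbers). It was lowest for male controls with male 30x (-0.080, against 0.020). Blocks by the number in the library name were not tested. With the replicate block, 1 of the 6 clock genes was called between the sexes over all doses and 0 of 6 in every other comparison. In that setting r was -0.77 for Dbp and -0.44 for Nr1d1 with Arntl, and 5 pairs differed between the sexes.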
